A study of Arabidopsis thaliana with 21 samples.

Results

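The transcriptomes of H89C11-7 and H89C23-10, 2 Arabidopsis thaliana lines that carry the same AtNEET-H89C construct, were compared with each other. All 3 libraries of each line were used, 6 of the 21 libraries in the series, with the 3 libraries of the wild type Col as a common point of orientation. Every library was made from whole 7-day-old seedlings, grown in liquid medium with 0.5x MS salts, and all groups shared this age and treatment. The series asks how the dominant-negative protein affects iron-sulfur metabolism and iron homeostasis. The labels give neither the promoter that drives the transgene nor its insertion site, so effects of the transgene level and of the insertion site in a line cannot be told apart. Nor do they tell separate cultures from repeat libraries of 1 culture, so p-values reflect the spread among the libraries alone, and that spread may be technical.

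NEET proteins hold a 2Fe-2S cluster through 3 cysteines and 1 histidine and can pass it, or its electrons, to other proteins. In plants the single family member, AtNEET (AT5G51720), has been placed in chloroplasts and mitochondria. Replacing the histidine ligand by cysteine makes the cluster more stable and less easily given up, which is the basis of the dominant-negative form named H89C. The site of the change is shown here because it is what sets the construct of both lines apart from the native gene. In TAIR10.1, codon 89 lies in the second of 2 coding exons of AtNEET and is CAT, histidine, in capitals.
AtNEET codon 89, chr5:21010141-21010191, plus strand: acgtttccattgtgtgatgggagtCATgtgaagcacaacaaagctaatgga

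Depth was 18.96 to 19.77 M recovered reads (M, 1e6) in the H89C11-7 libraries and 22.87 to 24 M in the H89C23-10 libraries, so every H89C23-10 library was deeper than every H89C11-7 library; the part of depth in the differences was not tested. Col replicates 1 to 3 had 22.23, 18.77 and 8.24 M, and replicate 3 was the shallowest library of the series. The test covered the 20699 genes that reached 10 in 3 or more of the 21 libraries. Values below are normalized counts, in which the authors scaled every library's gene counts by its size factor. The median standard deviation (SD) over genes within a line was 0.0822 for H89C11-7 and 0.0768 for H89C23-10 on the log2(value + 1) scale. Replicate 2 of H89C23-10 stood apart in 0.0804% of its reads from chloroplast genome genes, against 0.0321% to 0.0377% in its other libraries, with 0.0344% to 0.0372% in H89C11-7. Without that library 3573 genes were called between the lines, against 4750 with it. Leaving out any other single library of the lines gave 3738 to 3882 genes. Effects of H89C23-10 replicate 2 on lists are given where a count moved by more than 1.5 times or where root genes are concerned. Both shoot and root were represented in all libraries, since antenna genes and root hair genes were each detected throughout. AtNEET, whose reads come from the transgene and the native gene together, had 2361, 2282 and 2499 in H89C11-7 and 1225, 1299.8 and 1373 in H89C23-10, against 366, 186 and 230.4 in Col. No library of one line overlapped another, and the AtNEET level of H89C11-7 was 1.83-fold that of H89C23-10, a description only, since the pair was picked with this level known.

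H89C11-7 and H89C23-10 differed in 4750 genes, 22.9% of those tested (limma-trend, adjusted p under 0.05). H89C11-7 was higher in 2454 of them (11.9%) and lower in 2296 (11.1%). Most differences were small: the median absolute log2 difference was 0.14 over all tested genes and 0.36 over called genes. A difference of at least 2-fold as well was reached by 636 genes (3.07%), 292 higher (1.41%) and 344 lower (1.66%). Past 4-fold there were 67 genes, of which 51 were higher and 16 lower in H89C11-7. The libraries of the lines did not overlap in 9122 genes (44.1%), so a lack of overlap by itself is common in this pair. For every called gene whose 6 values are given below, all libraries of one line lay beyond all libraries of the other. Fold changes are on the log2(value + 1) scale, values after ± are standard errors (SE) beside log2 differences and SD beside means, and n is 3 libraries a line. Each adjusted p is from limma with Benjamini-Hochberg adjustment over all tested genes.

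**Figure D1:**
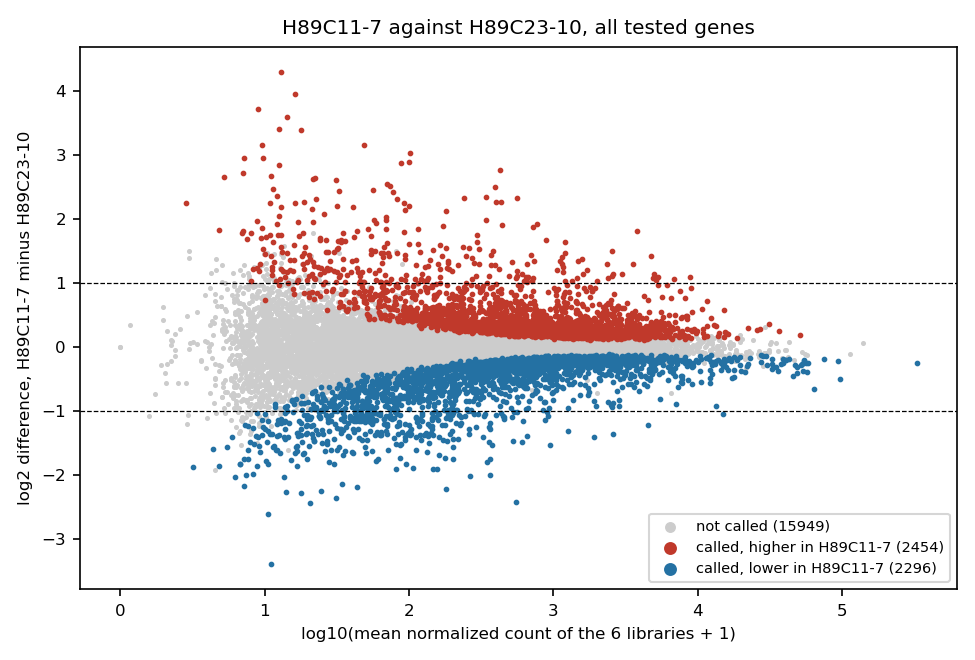
Log2 difference of H89C11-7 minus H89C23-10 (vertical axis) against the mean normalized count of the 6 libraries (horizontal axis, log10 of the mean plus 1) for 20699 tested genes. Red points are the 2454 genes called higher in H89C11-7, blue points the 2296 called lower, and dashed lines mark 2-fold.

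Gene groups were read from 32 lists with 608 entries, of which 571 passed the filter on low values. The lists with the highest medians were iron deficiency, salicylic acid, sugar starvation, stress WRKY factors and camalexin with indolic glucosinolates. At the other end stood root triterpene clusters, root hair, endodermis with suberin, cold with abscisic acid, and aquaporins. The median log2 difference over all tested genes was 0.0103, so these lists are read against a centre close to 0. Counts of called members in every list are to be read against all tested genes, of which 11.9% were higher and 11.1% lower.

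**Figure D2:**
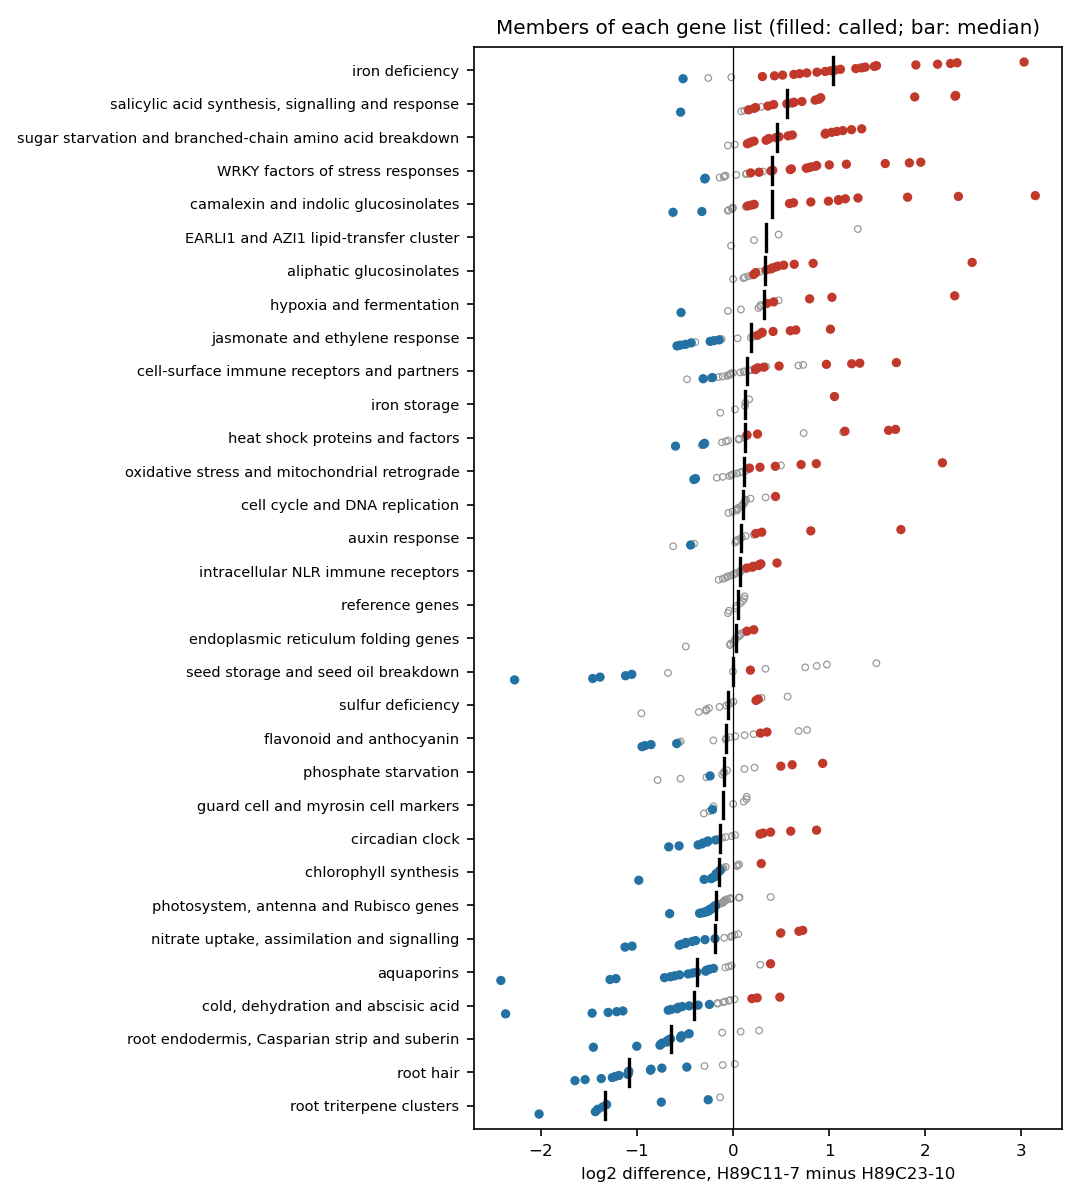
Log2 difference of H89C11-7 minus H89C23-10 for every tested member of the 32 gene lists, ordered by the median (black bar). Filled points are called genes, red where H89C11-7 is higher and blue where it is lower, and open points are not called; root hair and triterpene members lie mostly left of 0, and iron deficiency and sugar starvation members mostly right of it.

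Defence genes of the salicylic acid branch were higher in H89C11-7. Salicylic acid is the hormone of resistance to biotrophic pathogens; ICS1 starts its main synthesis, and NPR1 and NPR3/NPR4 perceive it. Of 23 tested members, 16 were higher and 1 lower, with a median log2 difference of 0.56, against 11.9% and 11.1% of all tested genes. DLO1, a salicylic acid hydroxylase, had 364, 434 and 401 in H89C11-7 libraries, against 89.3, 66.0 and 83.7 in H89C23-10 libraries (log2 2.32 ± 0.23, adjusted p = 2.86e-08). FMO1, which makes the mobile immune signal N-hydroxypipecolic acid, had 272, 254 and 285 in H89C11-7 libraries, against 64.9, 89.8 and 64.0 in H89C23-10 libraries (log2 1.89 ± 0.25, adjusted p = 2.81e-06). UGT74F2, which couples salicylic acid to glucose, had 2555, 2463 and 2625 in H89C11-7 libraries, against 1377, 1293 and 1384 in H89C23-10 libraries (log2 0.91 ± 0.059, adjusted p = 1.62e-11). All 3 H89C11-7 libraries lay above all 3 H89C23-10 libraries in each of these genes. DMR6, another salicylic acid hydroxylase, and CBP60G, a transcription factor that turns on ICS1, were 1.53-fold and 1.55-fold higher. PBS3, which conjugates the precursor isochorismate, was 1.87-fold higher, and the receptor genes NPR3 and NPR4 were 1.65-fold and 1.48-fold higher. ICS1 itself had 526 ± 10.4 in H89C11-7, against 466 ± 37.1 in H89C23-10 and was not called (adjusted p = 0.108), nor was NPR1 (log2 0.12, adjusted p = 0.105). The member that was lower in H89C11-7 was EDS5, the chloroplast exporter of salicylic acid precursors, with 168, 172 and 156 in H89C11-7 libraries, against 217, 274 and 236 in H89C23-10 libraries (log2 -0.54 ± 0.11, adjusted p = 0.000607). PR2, a glucanase and classic response marker, had 29.5, 42.0 and 37.6 in H89C11-7 libraries, against 5.06, 8.81 and 5.98 in H89C23-10 libraries, few reads in all libraries.

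WRKY transcription factors, which bind the W-box (core TTGAC) in promoters of defence genes, were mostly higher in H89C11-7. Of 26 tested stress-related members, 16 were higher and 2 lower in H89C11-7, with a median of 0.41. WRKY70, a factor that acts with salicylic acid signalling, had 694, 834 and 789.5 in H89C11-7 and 382, 341 and 299 in H89C23-10, against 503, 431 and 409 in Col (log2 1.18 ± 0.095, adjusted p = 8.78e-10). The Col libraries thus lay between the lines. WRKY51 was 3.57-fold higher, at 119, 98.1 and 103 in H89C11-7, against 28.6, 23.8 and 35.9 in H89C23-10, and WRKY30 was 3.88-fold higher with at most 43.1 normalized counts in any of the 6 libraries. WRKY48, WRKY18 and WRKY29 were 2-fold, 1.81-fold and 1.7-fold higher. WRKY11 and WRKY17, a related pair known as negative regulators of basal resistance, were lower, at log2 -0.29 and -0.29. WRKY17 lost its call without H89C11-7 replicate 1 or 2 or without H89C23-10 replicate 2 or 3 (adjusted p of at most 0.112).

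Camalexin, the main indolic phytoalexin of Arabidopsis, and indolic glucosinolates are both made from tryptophan through indole-3-acetaldoxime. Of 22 tested genes of this branch, 14 were higher and 2 lower in H89C11-7, with a median of 0.41. CYP71A13, which turns indole-3-acetaldoxime into indole-3-acetonitrile, had 72.7, 84.1 and 104 in H89C11-7 and 10.1, 8.81 and 7.68 in H89C23-10, against 2.68, 5.36 and 17.2 in Col (log2 3.15 ± 0.57, adjusted p = 0.000171), the largest rise by the rule for named genes. Its close copy CYP71A12 had 5449, 6035 and 6160.2 in H89C11-7 and 1701, 1592 and 1704 in H89C23-10, against 1649, 1240.4 and 1667 in Col (log2 1.82 ± 0.13, adjusted p = 1.35e-10). CYP82C2, which hydroxylates indole carbonyl nitriles, had 506, 636 and 566 in H89C11-7 and 114, 104 and 114 in H89C23-10, against 175, 148 and 139.7 in Col (log2 2.35 ± 0.24, adjusted p = 3.98e-08). In these genes the H89C11-7 libraries lay above those of H89C23-10 and Col, and the differences of H89C23-10 from Col were not called, at log2 0.39, 0.15 and -0.47. PAD3, the enzyme of the last steps to camalexin, was 1.75-fold higher, and GSTF6, a glutathione S-transferase of the pathway, 2.47-fold higher. CYP81F2, which modifies indolic glucosinolates, was 1.55-fold higher. The regulators split: MYB51 and MYB122 were 1.5-fold and 2.25-fold higher, while MYB34 was lower, with 880.0, 895 and 927 in H89C11-7 libraries, against 1354, 1486 and 1324 in H89C23-10 libraries (log2 -0.62 ± 0.059, adjusted p = 1.55e-08). Of the methyltransferase genes that follow CYP81F2, IGMT2 was 2.15-fold higher and IGMT1 1.25-fold lower. CYP71A12 and CYP71A13, and the IGMT genes, are similar in sequence, and the treatment of reads that fit several places is not given in the sources used here, so the split between copies is uncertain.

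The 250 bases before the annotated starts of CYP71A13 and CYP71A12 are shown because these genes moved together and WRKY factors are among their known regulators; TTGAC, searched on both strands, is in capitals (GTCAA where it lies on the other strand).
CYP71A13 promoter, chr2:13111989-13112238, minus strand: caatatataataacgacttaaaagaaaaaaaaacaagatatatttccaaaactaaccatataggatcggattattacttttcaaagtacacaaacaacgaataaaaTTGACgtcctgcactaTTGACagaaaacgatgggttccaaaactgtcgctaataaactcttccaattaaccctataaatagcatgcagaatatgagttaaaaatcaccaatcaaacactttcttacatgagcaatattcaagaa
CYP71A12 promoter, chr2:13101372-13101621, minus strand: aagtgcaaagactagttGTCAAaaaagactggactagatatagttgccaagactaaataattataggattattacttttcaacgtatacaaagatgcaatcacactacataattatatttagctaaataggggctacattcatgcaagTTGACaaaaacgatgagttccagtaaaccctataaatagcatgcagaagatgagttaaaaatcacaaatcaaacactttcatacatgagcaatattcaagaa
Each window held 2 matches. TTGAC was found in 14 of 22 windows of the camalexin and indolic list (63.6%), in 20 of 26 of the WRKY list (76.9%) and in 10 of 23 of the salicylic acid list (43.5%), against 45.4% of the 20216 tested protein-coding nuclear genes and 44.9% of all 27443. TTGAC was also in 25 of 30 windows (83.3%) of the surface immune receptor list, where 19 of 30 genes were not called. Reference genes held it in 5 of 8 windows (62.5%), and none of them was called. A match describes the letters and is no evidence of binding.

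Most immune receptor genes were not called. Of 30 tested surface receptors and partners, 9 were higher, 3 of them past 2-fold, and 2 lower (median log2 0.14). RBOHD, the NADPH oxidase of the immune oxidative burst, had 1949, 1908 and 1950.3 in H89C11-7 libraries, against 1392, 1402 and 1365 in H89C23-10 libraries (log2 0.48 ± 0.047, adjusted p = 2.43e-08). WAK1, a wall-associated kinase that senses pectin fragments, had 271, 270.3 and 229.9 in H89C11-7 and 105, 101 and 119 in H89C23-10, against 52.7, 37.5 and 36.8 in Col, a 2.36-fold difference, and FRK1, a marker of pattern-triggered immunity, was 1.96-fold higher. RLP23, a receptor-like protein that senses a peptide of microbial NLP proteins, was 2.5-fold higher, with 30.6, 23.03 and 27.5 in H89C11-7, against 7.58, 12.3 and 11.1 in H89C23-10. The largest difference of the list was that of CRK6, a cysteine-rich receptor-like kinase gene, at 30.6, 43.0 and 34.6 in H89C11-7, against 9.27, 11.4 and 10.2 in H89C23-10 (3.25-fold), a call lost without H89C11-7 replicate 2 or 3 or H89C23-10 replicate 1 or 3 (adjusted p of at most 0.0822). DORN1, the receptor of extracellular ATP, was lower at log2 -0.31. The flagellin receptor gene FLS2, at log2 -0.21, lost its call when any 1 of the 6 libraries was left out (adjusted p of at most 0.182). BAK1, the shared co-receptor, had 1477 ± 50.6 in H89C11-7, against 1507 ± 39.8 in H89C23-10 (log2 -0.03, adjusted p = 0.728). Among 21 tested intracellular NLR receptors, 7 were higher and none lower (4 higher without H89C11-7 replicate 2), all by less than 2-fold. The share called was 33.3% here and 36.7% in the surface list, against 22.9% of all tested genes. ZAR1, the receptor that forms a membrane resistosome, had 1488, 1454 and 1524 in H89C11-7 libraries, against 1081, 1049.7 and 1116 in H89C23-10 libraries (log2 0.46 ± 0.05, adjusted p = 1.51e-07).

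Aliphatic glucosinolates, sulfur-rich defence compounds made from methionine, had mostly higher transcript levels in H89C11-7 than in H89C23-10. Of 19 tested genes, 11 were higher in H89C11-7 and none lower, with a median of 0.33. MAM3, a side-chain elongation enzyme, had 717, 664 and 626 in H89C11-7 and 119.7, 111 and 124 in H89C23-10, against 212, 266 and 218 in Col (log2 2.49 ± 0.12, adjusted p = 3.95e-14). CYP79F2 and CYP83A1, the next steps of the core pathway, were 1.78-fold and 1.44-fold higher, IPMI1 of chain elongation was 1.56-fold higher, and the regulator MYB28 was 1.27-fold higher. Against Col the list stood lower in both lines, with a median of -0.16 in H89C11-7 and -0.50 in H89C23-10. Against Col, 3 members were higher and 6 lower in H89C11-7, while none was higher and 12 were lower in H89C23-10. These comparisons share the Col libraries. Over all tested genes, 19.8% were higher and 17.9% lower than Col in H89C11-7, and 11.5% higher and 10.5% lower in H89C23-10.

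**Figure D3:**
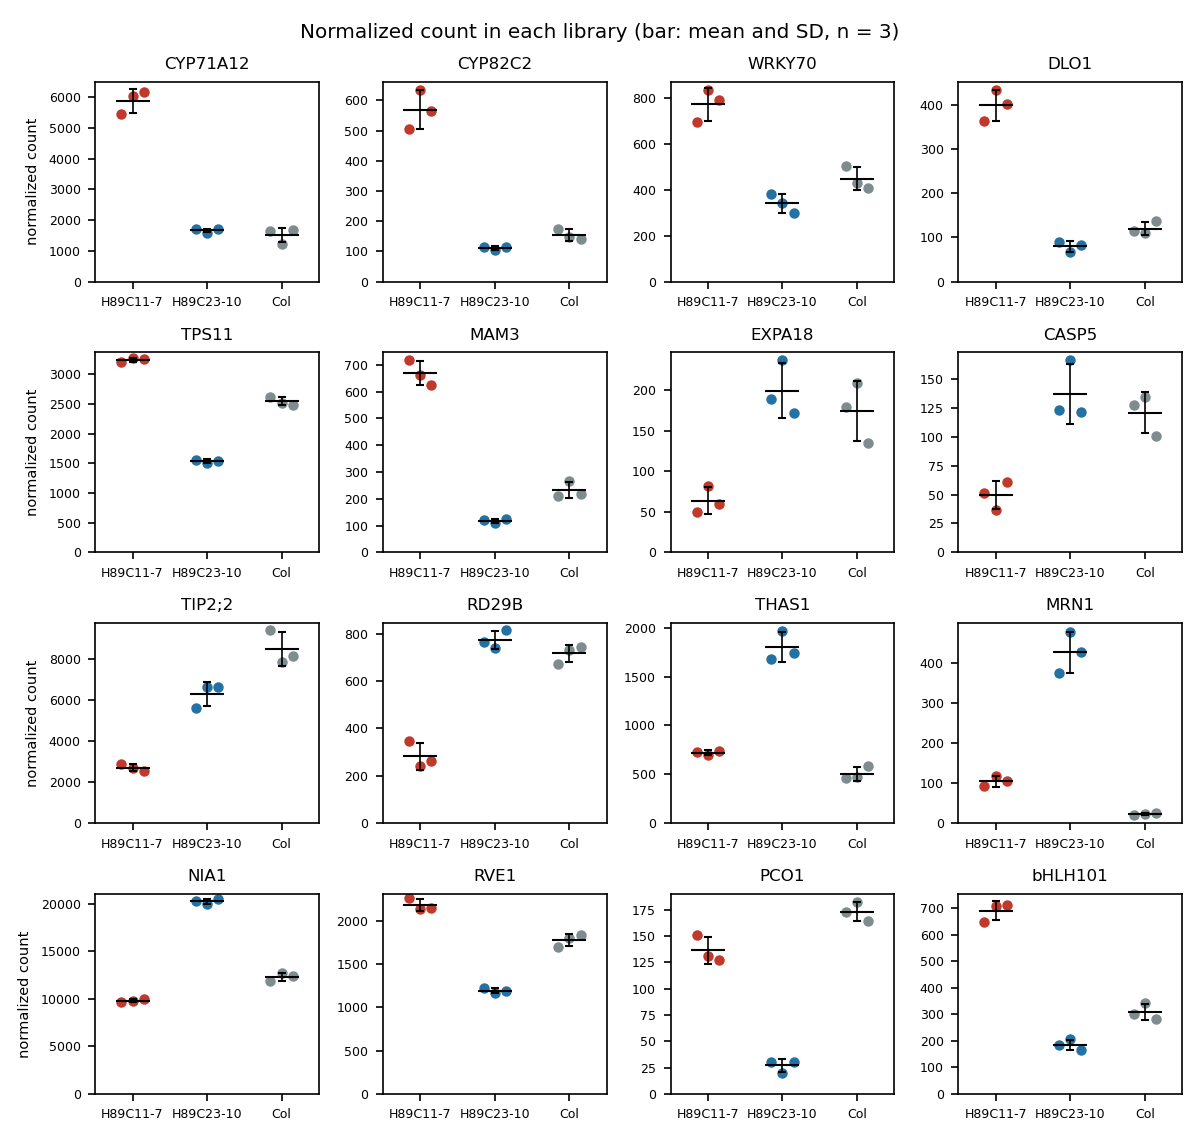
Normalized counts of 16 genes in each library of H89C11-7 (red), H89C23-10 (blue) and Col (grey), with the mean and SD (n = 3) as black bars and axes starting at 0. Defence and sugar-starvation genes are highest in H89C11-7, while root, aquaporin and RD29B values are lowest there; THAS1 and MRN1 are highest in H89C23-10, and PCO1 is lowest there.

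Genes that rise when sugar is short were higher in H89C11-7. DIN and SEN1 genes, class II trehalose phosphate synthase genes and enzymes of branched-chain amino acid breakdown are switched on in darkness or carbon starvation. Of 20 tested, 18 were higher and none lower, with a median of 0.46. TPS11, a trehalose phosphate synthase homologue repressed by sugar, had 3199.7, 3267 and 3259 in H89C11-7 and 1560.5, 1497 and 1537 in H89C23-10, against 2614, 2519 and 2486 in Col (log2 1.08 ± 0.046, adjusted p = 6.07e-15). SEN1, a dark- and senescence-induced gene, had 6801, 6786 and 7059 in H89C11-7 and 3022, 3148 and 3166 in H89C23-10, against 3856, 4316 and 3893 in Col (log2 1.14 ± 0.052, adjusted p = 2.25e-14). TPS8 had 7108, 7135 and 6971 in H89C11-7 and 3638, 3561 and 3700.1 in H89C23-10, against 5181, 5932 and 5729 in Col (log2 0.96 ± 0.046, adjusted p = 6.83e-14). For these genes and for KMD1, an F-box gene that was 1.95-fold higher, all H89C11-7 libraries lay above and all H89C23-10 libraries below the 3 Col libraries. DIN2, a beta-glucosidase gene, was 2.53-fold higher, BCAT2, which starts branched-chain amino acid breakdown, 2.04-fold, and DIN10, linked to raffinose metabolism, 1.49-fold. TPS10 and D2HGDH were not called, at log2 0.02 and -0.05.

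Of 44 tested nuclear photosynthesis genes (antenna, photosystem and Rubisco), 18 were lower in H89C11-7, all by less than 2-fold, none was higher and 26 were not called, with a median of -0.17. LHCB1.4, an antenna protein of photosystem II, had 51235, 47299 and 51591 in H89C11-7, against 78662, 75001 and 83102 in H89C23-10 (log2 -0.66 ± 0.077, adjusted p = 4.73e-07), and its near-identical relatives may share its reads. LHCB3 and LHCA1 were 1.27-fold and 1.22-fold lower. Both lines stood below Col, with list medians of -0.42 in H89C11-7 and -0.28 in H89C23-10. The count of lower members was 7 without H89C11-7 replicate 2 and 11 without H89C23-10 replicate 3, and 33 when only the 2 lines were fitted. Summed over the 45 listed genes, normalized counts ran from 1613464 to 1726762 in H89C11-7 and from 1896659 to 1960244 in H89C23-10, against 2203558 to 2407906 in Col. In chlorophyll synthesis 12 of 21 genes were lower and 1 higher (7 lower without H89C11-7 replicate 3), with a median of -0.15. CHLM, the methyltransferase of the magnesium branch, had 6340.4, 6255 and 6357 in H89C11-7, against 7331, 7249 and 7384 in H89C23-10 (log2 -0.21 ± 0.039, adjusted p = 0.000227). CAO, which makes chlorophyll b, was the member that was higher, with 4834, 4714 and 4509 in H89C11-7, against 3967, 3738 and 3744 in H89C23-10 (log2 0.30 ± 0.043, adjusted p = 9.85e-06).

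Root hair genes were lower in H89C11-7. Root hairs grow by tip extension, for which they use expansins, extensin-like wall proteins, peroxidases and the oxidase RHD2 under the regulators RHD6 and RSL4. Of 17 tested root hair genes, 14 were lower in H89C11-7 and none higher, with a median of -1.08; 10 of the 14 were past 2-fold. EXPA18, a root hair expansin, had 49.5, 82.1 and 60.0 in H89C11-7 and 189, 237 and 172 in H89C23-10, against 179, 209 and 135 in Col (log2 -1.64 ± 0.16, adjusted p = 2.29e-08). PRP1, a wall protein of root hairs, had 125, 261 and 191 in H89C11-7 and 473, 748 and 438 in H89C23-10, against 333, 532 and 397 in Col (log2 -1.54 ± 0.22, adjusted p = 1.11e-05). RHS19, a root hair peroxidase, had 260.3, 315 and 291 in H89C11-7 and 582, 792 and 506 in H89C23-10, against 590.0, 463 and 427 in Col (log2 -1.09 ± 0.15, adjusted p = 7.27e-06). In each gene the H89C11-7 libraries lay below all H89C23-10 and Col libraries, and the H89C23-10 and Col libraries overlapped. RHD2 was 1.39-fold lower, while RHD6, the regulator that marks the cells early, had 25.3 ± 1.21 in H89C11-7, against 25.2 ± 5.15 in H89C23-10 and was not called. Summed over the 17 genes, normalized counts ran from 3332.5 to 4283 in H89C11-7 and from 5853.7 to 8474 in H89C23-10, against 5177.8 to 6532.1 in Col. The highest sum was in H89C23-10 replicate 2, and without that library 12 members were lower. In whole seedlings, fewer cells of a type and less RNA per cell cannot be told apart.

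The endodermis, the inner root layer sealed by the Casparian strip and suberin, had mostly lower transcript levels in H89C11-7. Of 17 tested genes, 13 were lower in H89C11-7 and none higher, with a median of -0.65. CASP5, a scaffold protein of the strip, had 51.6, 37.0 and 61.0 in H89C11-7 and 123, 166 and 121 in H89C23-10, against 127, 134 and 100.5 in Col (log2 -1.45 ± 0.16, adjusted p = 2.46e-07). CYP86A1 and CYP86B1, which oxidize the fatty acids of suberin, were 1.61-fold and 2-fold lower, and ASFT, which adds ferulate, was 1.69-fold lower, at 450.0, 444 and 462 in H89C11-7, against 720.4, 807 and 769 in H89C23-10. PER64, the peroxidase of Casparian strip lignin, and GSO1, a receptor kinase of its control, were 1.57-fold and 1.37-fold lower. MYB36, the regulator that turns on CASP genes, was not called (log2 0.27, adjusted p = 0.273). The median against Col was -0.58 in H89C11-7 and 0.06 in H89C23-10, and 10 members were lower without H89C23-10 replicate 2. Summed over the 18 listed genes, normalized counts ran from 7726.4 to 8572.4 in H89C11-7 and from 10215.9 to 11062.1 in H89C23-10, against 9458 to 10735.5 in Col. No root hair or endodermis marker was under 1 in all 6 libraries. The part of these marker sums in the aquaporin, triterpene and nitrate values that follow was not tested.

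Aquaporins, the water channels of plasma membrane (PIP) and vacuole (TIP), were lower in 14 of 19 cases and higher in 1, with a median of -0.37. TIP2;3 had the largest fall by the rule for named genes, with 162, 222 and 137 in H89C11-7 and 756, 1044 and 962 in H89C23-10, against 1554, 1022 and 1177 in Col (log2 -2.41 ± 0.17, adjusted p = 7.2e-11). TIP2;2 had 2895, 2682 and 2536 in H89C11-7 and 5606, 6624 and 6651 in H89C23-10, against 9422, 7879.7 and 8171 in Col (log2 -1.22 ± 0.13, adjusted p = 8.86e-08), and PIP2;4 was 2.42-fold lower. TIP1;2 was 1.3-fold lower, and PIP1;2 had 16668 ± 492 in H89C11-7, against 16798 ± 227 in H89C23-10, a difference that was not called. PIP2;8 was the member that was higher, at log2 0.39, a call lost without H89C23-10 replicate 2 (adjusted p = 0.0727), where 11 members were lower. Against Col both lines were lower, with medians of -0.66 in H89C11-7 and -0.32 in H89C23-10.

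Root triterpenes followed another order among the groups. Thalianol and marneral are root triterpenes whose synthesis genes sit side by side in the genome. Of 8 tested genes of the thalianol, marneral and arabidiol clusters, 7 were lower in H89C11-7 than in H89C23-10, with a median of -1.33. Relative to Col, however, the medians were 0.48 in H89C11-7 and 1.84 in H89C23-10. MRN1, marneral synthase, had 91.7, 118 and 104 in H89C11-7 and 375, 476 and 426 in H89C23-10, against 20.6, 23.57 and 24.5 in Col (log2 -2.02 ± 0.18, adjusted p = 6.26e-09), so the level was highest in H89C23-10 and lowest in Col with no overlap between groups. THAS1, thalianol synthase, had 732, 697 and 738 in H89C11-7 and 1684, 1971 and 1745 in H89C23-10, against 459, 472 and 584 in Col (log2 -1.31 ± 0.076, adjusted p = 2.32e-12), in the same order. The oxidase THAD, which acts on thalianol, was 2.65-fold lower, and THAH 1.68-fold lower. MRO, which oxidizes marneral products, had 118, 152 and 167 in H89C11-7 and 319, 445 and 356 in H89C23-10, against 134, 153 and 149.5 in Col, so H89C11-7 overlapped Col (log2 -0.01). PEN1 of the arabidiol cluster was 1.19-fold lower, a call lost without H89C11-7 replicate 1 or without H89C23-10 replicate 2 or 3 (adjusted p of at most 0.103).

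Nitrate genes were mostly lower in H89C11-7 than in H89C23-10. Of 19 tested, 10 were lower and 3 higher, with a median of -0.18. NIA1, a nitrate reductase, had 9687, 9720.3 and 9957 in H89C11-7 and 20332, 19943 and 20445 in H89C23-10, against 11885, 12689 and 12371 in Col (log2 -1.05 ± 0.049, adjusted p = 3.95e-14), so H89C23-10 lay above Col and H89C11-7 below it. NIR1, nitrite reductase, had 6324, 6315 and 6385 in H89C11-7 and 9436, 9059.6 and 9523 in H89C23-10, against 6956, 6642 and 6717 in Col (log2 -0.56 ± 0.05, adjusted p = 5.92e-09). UPM1, which makes the siroheme cofactor of nitrite reductase, was 1.4-fold lower, and NIA2 and the transporter and sensor gene NRT1.1 were 1.31-fold and 1.41-fold lower. BT1, a nitrate-responsive scaffold gene, was 1.41-fold higher, and NRT3.1, the partner of high-affinity transporters, 1.61-fold higher. ANR1, a nitrate-responsive MADS-box gene, had 10.5, 13.0 and 11.2 in H89C11-7 and 6.74, 6.16 and 6.83 in H89C23-10, against 77.8, 62.1 and 78.5 in Col, below Col in both lines; it was called higher in H89C11-7 by limma, but not by edgeR or DESeq2 on recovered reads, nor without H89C11-7 replicate 2 or H89C23-10 replicate 2 (adjusted p of at most 0.0727).

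Genes of cold, dehydration and abscisic acid responses were more often lower than higher in H89C11-7. CBF factors bind the CRT/DRE element (core CCGAC) and switch on COR genes in the cold, while RAB18 and RD29B respond to abscisic acid. Of 24 tested, 14 were lower and 3 higher, with a median of -0.41. CBF3 had 9.48, 13.0 and 6.10 in H89C11-7 and 50.6, 54.6 and 48.7 in H89C23-10, against 81.3, 70.7 and 78.5 in Col (log2 -2.36 ± 0.22, adjusted p = 1.11e-08). Its neighbours CBF1 and CBF2 had the same order, with 16.9, 18.0 and 17.3 in H89C11-7, against 35.4, 41.4 and 48.7 in H89C23-10 for CBF1 and 25.3, 17.0 and 27.5 in H89C11-7, against 57.3, 61.6 and 53.8 in H89C23-10 for CBF2. RD29B had 348, 239 and 262 in H89C11-7 and 763, 742 and 816 in H89C23-10, against 674, 729.5 and 745 in Col (log2 -1.46 ± 0.11, adjusted p = 3.12e-10). RAB18, a dehydrin, had 569, 541 and 530.1 in H89C11-7 and 1192, 1192 and 1242 in H89C23-10, against 1099, 1183 and 1057 in Col (log2 -1.14 ± 0.082, adjusted p = 1.08e-10). RD29B and RAB18 were not called between H89C23-10 and Col. COR15A, a chloroplast protein that protects membranes in the cold, had 507, 430.5 and 422 in H89C11-7 and 662, 670.1 and 695 in H89C23-10, against 1362, 1189 and 1233 in Col, a 1.49-fold lower level. NCED3, of the rate-limiting step of abscisic acid synthesis, was 1.28-fold lower, a call lost without H89C11-7 replicate 2 (adjusted p = 0.0799). Members that were higher were BAM3, a starch-degrading amylase (1.4-fold), P5CS1 of proline synthesis (1.15-fold) and LTI30 (1.19-fold), whose call was lost without H89C11-7 replicate 2 or H89C23-10 replicate 1 (adjusted p of at most 0.0866). RD29A, often grouped with RD29B, had 3667 ± 144 in H89C11-7, against 3744 ± 64.7 in H89C23-10 and was not called (adjusted p = 0.757). The CBF genes, the COR15 genes and the pair of KIN1 and COR6.6 are close copies, so the split of reads among them is uncertain.

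Windows of COR15A and RD29B are shown as 2 lower genes of this list with the CBF element in reach, in capitals (GTCGG on the other strand).
COR15A promoter, chr2:17712331-17712580, minus strand: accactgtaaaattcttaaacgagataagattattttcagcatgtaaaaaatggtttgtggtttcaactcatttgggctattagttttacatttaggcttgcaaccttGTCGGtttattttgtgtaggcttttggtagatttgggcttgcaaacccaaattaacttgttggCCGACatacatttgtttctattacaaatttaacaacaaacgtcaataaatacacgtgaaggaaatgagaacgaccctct
RD29B promoter, chr5:21236771-21237020, plus strand: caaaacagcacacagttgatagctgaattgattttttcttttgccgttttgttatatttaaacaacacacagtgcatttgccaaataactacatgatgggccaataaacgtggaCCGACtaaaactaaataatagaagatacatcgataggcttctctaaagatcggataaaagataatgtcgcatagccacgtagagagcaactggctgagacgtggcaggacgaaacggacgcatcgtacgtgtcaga
CCGAC was present in 8 of 24 windows of the list (33.3%), against 12.8% of the windows of tested protein-coding genes and 12% of all. Those 8 include RD29A, GOLS2, GOLS3 and ZAT10, which were not called, and LTI30, which was higher. CCGAC was also in 6 of 17 windows of the root hair list (35.3%) and in 4 of 14 of the auxin list (28.6%). A high share is thus not particular to the cold list, and the part of CCGAC in these values was not tested.

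Called late seed genes were mostly lower in H89C11-7. Among 13 tested genes of seed storage and oil breakdown, 5 were lower in H89C11-7 and 1 higher, with a median of 0.0018. All 5 lower members were past 2-fold, and the higher one was not. OLEO2, an oil-body oleosin, had 25.8 ± 13.6 in H89C11-7, against 67.3 ± 9.96 in H89C23-10 (log2 -1.46 ± 0.23, adjusted p = 2.93e-05), PER1, a seed peroxiredoxin, was 2.6-fold lower, and MLS, malate synthase of the glyoxylate cycle, was 2.07-fold lower at 189.7, 174 and 180.1 in H89C11-7, against 362, 360.2 and 409 in H89C23-10. EM6, a late embryogenesis protein, was 2.17-fold lower. ICL, isocitrate lyase of the same cycle as MLS, had 1940.2 ± 280.5 in H89C11-7, against 1927 ± 135 in H89C23-10 (adjusted p = 0.994). The storage protein genes CRA1 and CRC had 260.3, 74.1 and 118 in H89C11-7, against 35.4, 72.2 and 114 in H89C23-10 for CRA1 and 169, 69.1 and 112 in H89C11-7, against 17.7, 48.4 and 64.0 in H89C23-10 for CRC, with wide spread, and were not called.

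Circadian clock genes were called in both directions. CCA1 and LHY are active in the morning and repress evening genes through the evening element AAATATCT, which RVE8 also binds, as an activator; PRR9, PRR7, GI, LUX and FKF1 follow later in the day. Of 18 tested clock and output genes, 5 were higher and 8 lower in H89C11-7. RVE1 had 2258, 2134 and 2151 in H89C11-7 and 1224, 1161 and 1191 in H89C23-10, against 1700.3, 1796 and 1834 in Col (log2 0.87 ± 0.046, adjusted p = 3.39e-13). LHY had 3347, 3362 and 3471 in H89C11-7 and 2318, 2256 and 2133 in H89C23-10, against 3493, 3741 and 3888 in Col (log2 0.60 ± 0.05, adjusted p = 1.37e-09), and RVE8 and CCA1 were 1.31-fold and 1.25-fold higher. FKF1, a blue light receptor of flowering time, had 518, 534 and 509 in H89C11-7 and 758, 737 and 806 in H89C23-10, against 556, 547 and 509.9 in Col (log2 -0.56 ± 0.061, adjusted p = 1.63e-07). PRR9, LUX, GI and PRR7 were 1.59-fold, 1.28-fold, 1.25-fold and 1.2-fold lower. CDF1, a morning-phased repressor of flowering, was lower at log2 -0.26, PIF5 higher at 0.28 and PIF4 lower at -0.31. TOC1, ELF3 and ELF4 were not called, at log2 0.02, -0.01 and -0.11. The time of day at which seedlings were taken is not given in the sources used here, and its part in these values was not tested.

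Windows of LUX and FKF1, both lower in H89C11-7, are shown with the evening element in capitals (AGATATTT on the other strand).
LUX promoter, chr3:17182792-17183041, plus strand: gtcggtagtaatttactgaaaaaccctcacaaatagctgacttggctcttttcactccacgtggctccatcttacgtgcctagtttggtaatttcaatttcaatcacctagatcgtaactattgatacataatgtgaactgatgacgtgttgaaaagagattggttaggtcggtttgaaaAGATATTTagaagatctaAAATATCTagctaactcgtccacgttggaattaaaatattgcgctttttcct
FKF1 promoter, chr1:25508389-25508638, plus strand: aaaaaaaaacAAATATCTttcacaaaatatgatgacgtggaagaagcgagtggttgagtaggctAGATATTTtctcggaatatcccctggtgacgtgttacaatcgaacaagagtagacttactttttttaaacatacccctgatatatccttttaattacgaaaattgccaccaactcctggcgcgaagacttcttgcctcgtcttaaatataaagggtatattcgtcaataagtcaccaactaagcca
AAATATCT was present in 5 of 18 clock windows (27.8%), those of TOC1, PRR5, ELF4, LUX and FKF1. It was in 4.97% of the windows of tested protein-coding genes and 4.79% of all. The element was also in 5 of 24 windows of the cold list (20.8%). In the EARLI1 and AZI1 lipid-transfer cluster 3 of 4 windows held it (75%), and no cluster member was called in the limma fit of all libraries. TOC1 and ELF4 were not called, and PRR9, GI and PRR7, which were lower, had no match. The part of the element in these values was not tested.

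Hypoxia genes are switched on when oxygen is short and oxygen-dependent decay of ERF-VII factors stops. In this list 5 of 12 tested genes were higher and 1 lower in H89C11-7, with a median of 0.32. PCO1, an oxidase that marks ERF-VII factors for decay, had 151, 131 and 127 in H89C11-7 and 30.3, 20.2 and 30.7 in H89C23-10, against 172, 182 and 164 in Col (log2 2.31 ± 0.14, adjusted p = 4.65e-12). LBD41, a hypoxia-induced factor, had 169.7, 174 and 162 in H89C11-7 and 78.4, 93.3 and 75.2 in H89C23-10, against 219.9, 216 and 199 in Col (log2 1.03 ± 0.12, adjusted p = 2.24e-07). SUS4, a sucrose synthase, was the member that was lower, with 58.0, 60.1 and 53.9 in H89C11-7, against 89.3, 87.2 and 75.2 in H89C23-10. The list lay below Col in both lines, with medians of -0.33 in H89C11-7 and -1.24 in H89C23-10. Against Col, 6 members were lower in H89C11-7 and 10 in H89C23-10, with none called higher in either.

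Auxin response genes included 4 higher and 1 lower of 14 tested (35.7% called, against 22.9% of all tested genes). GH3.3, which conjugates auxin to amino acids, had 452, 454 and 456 in H89C11-7 and 141, 139 and 124 in H89C23-10, against 165, 166 and 162 in Col (log2 1.75 ± 0.10, adjusted p = 2.5e-12). IAA1, an auxin-induced repressor, had 197, 171 and 194 in H89C11-7 and 95.2, 110.1 and 114 in H89C23-10, against 232, 222 and 186 in Col (log2 0.81 ± 0.11, adjusted p = 4.04e-06). IAA29 was the lower member, a call lost without H89C11-7 replicate 1 or 2 or H89C23-10 replicate 2 or 3 (adjusted p of at most 0.133). IAA7 and IAA19 were not called, at log2 0.05 and 0.09.

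Flavonoid genes were lower at a few steps. Of 17 tested, 4 were lower and 2 higher (35.3% called, against 22.9% of all tested genes). CHS, chalcone synthase, the entry to flavonoids, had 1421, 1223 and 1458 in H89C11-7 and 2272, 2774 and 2696 in H89C23-10, against 2204, 2189.5 and 2106 in Col (log2 -0.91 ± 0.073, adjusted p = 7.07e-10). FLS1, flavonol synthase, and MYB12, its regulator, were 1.8-fold and 1.92-fold lower. PAL1 and C4H of the general phenylpropanoid pathway were the higher members, at 1.22-fold and 1.28-fold. CHI, the step after CHS, had 382 ± 14.5 in H89C11-7, against 402 ± 20.1 in H89C23-10 (adjusted p = 0.579).

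Jasmonate genes differed in both directions, with 7 of 23 tested higher and 7 lower (4 lower without H89C23-10 replicate 1). AOC2, allene oxide cyclase of jasmonate synthesis, had 2722, 2821 and 2701 in H89C11-7 and 4268, 4021 and 4047 in H89C23-10, against 2029, 2272 and 2464 in Col (log2 -0.58 ± 0.054, adjusted p = 1.12e-08), and LOX2, the chloroplast lipoxygenase, was 1.46-fold lower. The synthesis genes LOX3, AOS and AOC1 were called lower too, at log2 -0.24, -0.14 and -0.19, but each lost its call without H89C11-7 replicate 2 and without H89C23-10 replicate 1 (adjusted p over single omitted libraries of at most 0.0786, 0.114 and 0.179). VSP1 and VSP2, storage proteins induced by jasmonate, were 1.35-fold and 1.41-fold lower. The JAZ repressors that were called, JAZ1, JAZ2, JAZ6 and JAZ9, were higher, JAZ9 with 2319, 2206 and 2241 in H89C11-7 libraries, against 1509, 1405 and 1382 in H89C23-10 libraries (log2 0.66 ± 0.049, adjusted p = 2.22e-10). PR4 and CHIB, targets of the joint ethylene and jasmonate branch, were 1.34-fold and 1.51-fold higher.

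Iron genes, the subject of the series, are given briefly. Of 24 tested iron deficiency genes, 21 were higher in H89C11-7 and 1 lower, with a median of 1.04; 13 were past 2-fold. bHLH101, a clade Ib factor of the deficiency response, had 650.3, 711 and 713 in H89C11-7 and 183, 206 and 165 in H89C23-10, against 300.4, 342 and 284 in Col (log2 1.90 ± 0.1, adjusted p = 3.29e-13), and bHLH100 was 5.04-fold higher. The largest rise of the list was that of AT3G12900, a 2-oxoglutarate and iron dependent oxygenase gene, with 151, 139 and 246 in H89C11-7, against 18.5, 14.97 and 29.9 in H89C23-10 (8.17-fold). NAS2, which makes the metal chelator nicotianamine, had 162, 143 and 152 in H89C11-7, against 32.0, 12.3 and 19.6 in H89C23-10. FRO2 and IRT1, the root iron reductase and transporter, were 2.53-fold and 2.77-fold higher, while FRU, the factor also known as FIT, was 1.43-fold lower. Ferritin genes FER1, FER3 and FER4 were not called, at log2 0.13, 0.02 and -0.13. Of 6 iron storage genes 1 was higher, the vacuolar transporter-like gene VTL1 at log2 1.06, a call lost without H89C11-7 replicate 3 (adjusted p = 0.0675).

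The remaining lists held few calls or calls in both directions. Over all tested genes, 11.9% were higher and 11.1% lower in H89C11-7. Of 15 cell cycle genes 1 was called, TSO2 of ribonucleotide reductase at log2 0.44, and the mitotic cyclin CYCB1;1 was not called (log2 0.18, adjusted p = 0.497). Of 14 sulfur deficiency genes 2 were higher, APR1 and SHM7 (1.18-fold and 1.2-fold). Endoplasmic reticulum folding genes had 2 of 13 higher, PDIL1-1 and BZIP60, and none without H89C23-10 replicate 2 (adjusted p of at most 0.152 for PDIL1-1 and 0.0633 for BZIP60). None of 8 reference genes and none of 4 members of the EARLI1 and AZI1 cluster was called in the limma fit of all libraries. With only the 6 libraries of the 2 lines in the fit, 2 reference genes and 3 cluster members were called higher; 1 cluster member was called higher with a pseudocount of 5, by edgeR and by DESeq2, and no reference gene was. Heat shock genes had 5 of 19 higher and 3 lower, but 1 to 3 higher when any 1 library was left out, 3 higher with TMM scaling, median centring or no filter, and 8 higher when only the 2 lines were fitted. The lower members were MBF1C, a coactivator of the heat response, HSFB2A and DREB2A; without H89C23-10 replicate 1 only MBF1C stayed called (adjusted p of at most 0.073 for HSFB2A and 0.147 for DREB2A over single omitted libraries). HSP17.6A, a cytosolic small heat shock protein, had 89.6, 113 and 113 in H89C11-7 libraries, against 28.6, 37.9 and 34.2 in H89C23-10 libraries (log2 1.62 ± 0.36, adjusted p = 0.00158), whereas HSP101 and HSP90.1 were not called. Phosphate starvation genes had 3 of 13 higher, among them the phosphodiesterase GDPD1 (1.91-fold), and 1 lower, PHT1;1, a call lost without H89C11-7 replicate 2 or 3 or H89C23-10 replicate 3 (adjusted p of at most 0.113). Of 8 guard cell and myrosin cell markers 1 was lower, TGG1, a call lost in 4 of the 6 fits that left out a library, namely H89C11-7 replicate 2 or 3 or H89C23-10 replicate 1 or 2 (adjusted p of at most 0.127). In the oxidative stress list, 6 of 20 were higher and 2 lower. AOX1D, an alternative oxidase, had 54.8, 69.1 and 74.3 in H89C11-7 libraries, against 15.2, 12.3 and 13.7 in H89C23-10 libraries (log2 2.18 ± 0.44, adjusted p = 0.000631), while its relative AOX1A had 1111 ± 35.3 in H89C11-7, against 986 ± 42.6 in H89C23-10 (adjusted p = 0.0594). CSD2, the chloroplast copper/zinc superoxide dismutase, and its copper chaperone CCS were 1.31-fold and 1.32-fold lower.

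Beyond these lists, large differences were found in single genes. Among the 10 largest rises was AT5G01870, a lipid-transfer protein gene (7.41-fold). GSTF14, a phi-class glutathione S-transferase gene, had 784, 708 and 732 in H89C11-7 and 107, 99.5 and 119 in H89C23-10, against 324, 313 and 248 in Col (log2 2.77 ± 0.16, adjusted p = 2.4e-12). AT4G08780, a peroxidase gene, was 6.1-fold higher, and AT3G22910, an ATPase E1-E2 family gene, 5.49-fold. The 10 largest falls included BGLU19, a beta-glucosidase gene, with 72.7, 57.1 and 61.0 in H89C11-7 and 287, 295 and 307 in H89C23-10, against 284, 296 and 279.5 in Col (log2 -2.21 ± 0.14, adjusted p = 1.45e-11). DELTA-VPE, a vacuolar processing enzyme of the seed coat, was 4.54-fold lower, EXPA2, an expansin of germinating seeds, 4.39-fold, and CYS2, a cysteine protease inhibitor, 3.73-fold. AT3G17520, a late embryogenesis abundant protein gene, had 153, 124 and 158 in H89C11-7 and 575, 583 and 570.4 in H89C23-10, against 374, 410.3 and 370.2 in Col (log2 -1.99 ± 0.15, adjusted p = 1.78e-10). No gene was under 1 in all 3 libraries of 1 line and at least 20 in all 3 of the other; the nearest, chosen after their values were seen, included ELI3-2, annotated as cinnamyl alcohol dehydrogenase 8, with 35.8, 22.0 and 30.5 in H89C11-7, against 1.69, 0 and 1.71 in H89C23-10, and SUC7, a sucrose symporter gene with close copies in its family, with 22.1, 29.0 and 19.3 in H89C11-7, against 0, 0 and 0.85 in H89C23-10.

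Called genes past 2-fold formed 5 runs of at least 3 neighbours with the same direction, 16 genes in all. On chromosome 1, at 9126737 to 9143336 (TAIR10.1), AT1G26380, AT1G26390, AT1G26410 and AT1G26420, annotated as FAD-binding Berberine family proteins, were 2.14-fold, 2.31-fold, 2.48-fold and 2.1-fold higher. Over all 20 tested genes with that annotation, 12 were higher and 2 lower, a family counted after the values were seen. That is 70% called, against 22.9% of all tested genes. The 70% includes the genes of this run and was the highest share among the product names counted. It is therefore a description only. CBF2, CBF3 and CBF1 formed a lower run on chromosome 4, at 13015250 to 13022996. The marneral genes CYP705A12, MRO and MRN1 formed another on chromosome 5, at 17023502 to 17058245, with CYP705A12 2.69-fold lower. AT5G38900, AT5G38910 and AT5G38930 were higher together on chromosome 5, at 15573505 to 15586029; AT5G38910, a cupin family gene, had 611, 792 and 744 in H89C11-7 libraries, against 129, 149 and 168 in H89C23-10 libraries, and AT5G38930 lost its call when any 1 library but H89C11-7 replicate 1 was left out (adjusted p of at most 0.161). The last run, AT5G54000, AT5G54020 and AT5G54030 at 21917699 to 21927524 on chromosome 5, was lower, with at most 35.2 normalized counts in the 6 libraries; AT5G54030 lost its call without H89C23-10 replicate 2 or 3 (adjusted p of at most 0.0727).

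In most large differences Col was nearer to H89C23-10. Among the 292 genes past 2-fold higher, the Col mean was nearer to H89C23-10 in 232 and nearer to H89C11-7 in 60. Of the 344 past 2-fold lower, it was nearer to H89C23-10 in 288 and to H89C11-7 in 56. The Col mean lay between the means of the lines in 169 of the 292 and in 236 of the 344. Called differences from Col numbered 7813 in H89C11-7 (37.7%) and 4568 in H89C23-10 (22.1%), both against the same Col libraries. Salicylic acid, root hair and endodermis genes had medians of 0.63, -0.81 and -0.58 in H89C11-7, against 0.14, 0.13 and 0.06 in H89C23-10. In 9 of the 32 lists the H89C23-10 median was the one farther from 0. Among them were root triterpene, hypoxia and aliphatic glucosinolate genes, given above, auxin genes at -0.42 in H89C11-7 and -0.59 in H89C23-10, seed genes at 0.26 in H89C11-7 and 0.70 in H89C23-10, and clock genes at -0.26 in H89C11-7 and -0.38 in H89C23-10. The others were phosphate starvation, cell cycle, and guard cell with myrosin cell genes. Sugar starvation genes had medians of 0.39 in H89C11-7 and -0.03 in H89C23-10, and iron deficiency genes 0.82 in H89C11-7 and -0.17 in H89C23-10.

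**Figure D4:**
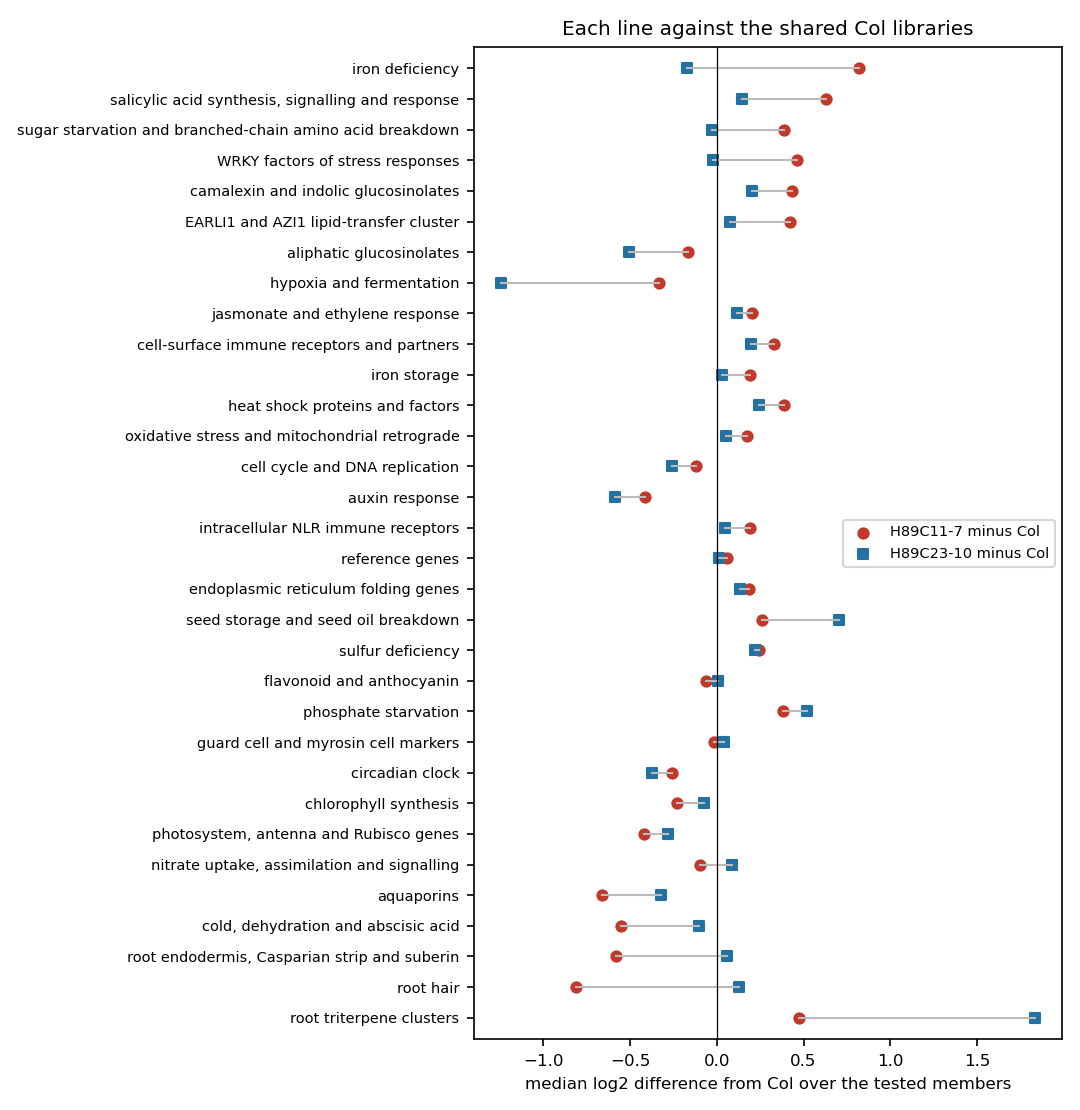
Median log2 difference from Col over the tested members of each list, for H89C11-7 (red circles) and H89C23-10 (blue squares), both against the same 3 Col libraries. Root hair genes lie at -0.81 in H89C11-7 and 0.13 in H89C23-10, and root triterpene genes at 0.48 in H89C11-7 and 1.84 in H89C23-10.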

How the data were processed

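RNA from whole 7-day-old seedlings was sequenced in 21 libraries of 7 groups. The deposited table holds 32833 genes as normalized counts, a signal unit: the authors scaled the gene counts of a library by its size factor. The submitters' processing notes name FastQC 0.11.7, STAR 2.4.0.1, DESeq2 1.20.0 and TAIR10. Counting tool, strand setting and treatment of multiply mapping reads: not given in the sources used here. Dividing by the smallest step gave whole reads (tolerance 0.001) for 100.0% of values, 8.24 to 24.68 M per library.

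Genes with at least 10 in 3 or more libraries were tested with limma 3.58.1 (limma-trend, R 4.3.3) on log2(value + 1) of all libraries, 1 mean per group and 14 residual degrees of freedom. Genes were called at a Benjamini-Hochberg adjusted p under 0.05 over 20699 genes. The script was tested on simulated data. Alternatives were a pseudocount of 5, no filter, only the compared groups, a replicate block, TMM scaling, median centring, edgeR 4.0.16 and DESeq2 1.42.0 on recovered reads, and leaving out each library.

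The lists and the comparison were chosen with earlier results of these data known. The text names, by rule, AtNEET, the 10 largest called rises and 10 largest called falls (mean at least 50 in the higher line, lines not overlapping), up to 4 called members per list with the smallest adjusted p, and neighbour runs; any further gene in the text was picked with its values in view. Gene names, coordinates and sequences came from RefSeq's TAIR10.1 annotation and genome, where 32548 genes matched; 27 list members are shown by ID.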

Additional observations from a re-analysis of the deposited data

Results flagged for a closer look

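In 209 of the 20699 tested genes all H89C11-7 libraries lay above and all H89C23-10 libraries below the 3 Col libraries. In 204 of the 20699 the order was the opposite. Of these, 97 and 80 were also called between the lines and against Col in both lines. The difference between the lines was tested in the limma fit; both departures share the Col libraries. Among 138 named genes 38 showed either order, each called between the lines, and 26 of them were also called against Col in both lines. Apart from AtNEET, the named genes were picked among genes called between the lines. That call was thus fixed by the choice, and the share among named genes does not describe other genes. Those 26 are given first.

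On the side where H89C11-7 was above Col, the log2 differences of H89C11-7 minus H89C23-10 were 2.89 for AT5G01870, 2.77 for GSTF14, 2.49 for MAM3, 2.33 for bHLH100, 1.90 for bHLH101 and 1.75 for GH3.3. Smaller differences of this kind were 1.18 for WRKY70, 1.14 for SEN1, 1.08 for TPS11, 0.97 for KMD1, 0.96 for TPS8, 0.87 for RVE1, 0.84 for CYP79F2, 0.66 for JAZ9 and 0.50 for BT1. Relative to Col, GH3.3 stood at log2 1.46 in H89C11-7 and -0.29 in H89C23-10, and GSTF14 at 1.34 in H89C11-7 and -1.43 in H89C23-10.

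On the side where H89C11-7 was below Col, the differences were -2.18 for DELTA-VPE, -2.13 for EXPA2, -1.99 for AT3G17520, -1.91 for AT5G47950, -1.90 for AT4G37700 and -1.90 for CYS2. The others were -1.05 for NIA1, -0.91 for CHS, -0.85 for FLS1, -0.62 for MYB34 and -0.49 for UPM1. NIA1 stood at log2 -0.33 in H89C11-7 and 0.72 in H89C23-10 relative to Col, and CHS at -0.67 in H89C11-7 and 0.25 in H89C23-10.

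The other 12 genes had the order of libraries but were not called against Col in at least 1 of the lines, so an opposite departure from Col was not shown by a test. H89C11-7 was higher by log2 2.51 for AT3G28510, 2.35 for CYP82C2, 2.32 for DLO1, 0.88 for ORG1, 0.87 for ZAT12 and 0.64 for IPMI1. The differences were -1.14 for RAB18, -0.999 for CYP86B1, -0.68 for CYP86A1, -0.58 for COR6.6, -0.56 for NIR1 and -0.41 for CCS. IPMI1 and NIR1 were not called against Col in H89C11-7, and the others were not called against Col in H89C23-10.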

How the results depend on the processing

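The 4750 genes called between the lines became 4520 to 6793 under the other settings, with 6793 when only the 6 libraries of the 2 lines were fitted, 5049 by edgeR and 4689 by DESeq2 on recovered reads. Leaving out 1 library gave 3573 to 3882 genes in all, 1841 to 2005 higher and 1732 to 1877 lower, and past 2-fold 525 to 620 in all, 243 to 277 higher and 266 to 362 lower. Against Col, leaving out 1 library gave 6470 to 7613 genes in H89C11-7 (3387 to 4081 higher, 3083 to 3599 lower) and 3288 to 4853 in H89C23-10 (1714 to 2602 higher, 1574 to 2251 lower). With only the compared libraries, H89C23-10 against Col fell to 2430 genes, 1254 higher and 1176 lower; the cause was not tested. Genes near 0 in 1 line numbered 0, but 1 with a limit of under 2 in place of under 1, and 3 with at least 10 in place of at least 20. The median over all genes was 8e-04 with TMM scaling and -0.0011 with median centring. With a replicate block 4755 genes were called. Libraries with the same number in the 2 lines had correlations of deviations of 0.027, 0.022 and 0.024. Those with unlike numbers had -0.038 to 0.015. Such small values from 3 libraries a line cannot decide whether equal numbers mark a pairing. No comparison or named gene reversed direction in the settings run. Of the 138 genes named by rule, 13 lost their call in at least 1 of the fits that left out a library, and 3 in at least 1 other setting. Further genes of the text that lost calls, such as WRKY17, CRK6, FLS2 and ANR1, are outside these counts. WRKY30, PR2 and CYP71A13 rest on few reads in H89C23-10.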
